A study of Mus musculus with 12 samples.

Results

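The genes described here build ribosomes in the nucleolus. They are 38 named mouse genes, chosen by their known roles in transcription of ribosomal DNA by RNA polymerase I (Pol I), in rRNA modification, in assembly of the small and large ribosomal subunits, and in general nucleolar function. Their Ensembl identifiers were taken from the GENCODE annotation and looked up in the deposited table of the hippocampus. Of the 38 genes, 37 were found, and all 37 passed the minimum level for testing, a mean of 0.1 TPM, a unit in which reads are corrected for transcript length and library size. In all, 18197 of 26409 listed genes were tested. Expression of *Noc2l* was not analysed here, while its promoter is counted below. The rule looks genes up by name and applies no threshold on a measured value, but the genes were proposed with earlier results of these data known.

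The tissue was microdissected hippocampus of adult mice, 6 to 12 months old, on the C57Bl/6 background, and RNA was read from poly-A selected libraries. The 6 wild-type (WT) libraries were 3 labelled female and 3 labelled male. The 6 *Dek* constitutive knockout (cKO) libraries, again 3 of each sex, came from mice lacking exons 3 and 4 of *Dek* on both alleles. *Dek* codes for a chromatin-binding protein. The floxed allele had been deleted by CMV-Cre, which acts in all tissues and the germline, and the Cre transgene was then bred out, so the deletion is constitutive in every cell. *Dek* (chromosome 13, 47084775 to 47106201, GRCm38) had 49.5, 44.2 and 47.0 TPM in female WT, 51.9, 48.7 and 48.8 TPM in male WT, 6.52, 9.25 and 6.52 TPM in female cKO and 7.47, 8.10 and 5.55 TPM in male cKO libraries. Every cKO library lay below every WT library, and the means were 48.3 ± 2.58 TPM (SD, n = 6) in WT and 7.23 ± 1.32 TPM (SD, n = 6) in cKO libraries.

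Several facts about the libraries bear on what follows. The Y-linked gene *Eif2s3y* was at 72.7 TPM in the library labelled female cKO replicate 3, a level of male WT libraries, and at 0.111 TPM in the library labelled male cKO replicate 1, a level of female libraries. The sexes are used as labelled. The medians by sex and values of *Fbl*, *Nip7*, *Npm1*, *Ddx18* and *Rrp1b* are also given with those labels exchanged. Counts of groups without overlap and counts of pathway lists by sex are given as labelled only. Male cKO replicate 3 stood apart in the astrocyte marker *Gfap*, at 1267 TPM against 208 to 437 TPM in the other 11 libraries. The sum over 5 astrocyte markers, *Gfap* among them, was 1700 TPM there, against 652.5 to 960 TPM. *Gfap* made up most of that sum and its whole excess, so the sum does not show that other markers of the list were raised. Results are therefore given with and without male cKO replicate 3. Hippocampal identity was shown by markers of dentate granule cells, which summed to 136.9 to 217.1 TPM, and of CA1 and CA3 pyramidal cells, which summed to 226.0 to 316.4 and 135.4 to 209.0 TPM. Choroid plexus markers ranged from 45.8 to 4443 TPM and overlapped between the genotypes. Female WT libraries carried a different name prefix from all others, so in females that prefix and genotype cannot be told apart. The labels number the libraries without stating that each is a separate mouse, and p-values measure the spread between these libraries. In bulk tissue, fewer cells of a type and less RNA per cell cannot be told apart.

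As background, ribosome production starts in the nucleolus, where Pol I copies ribosomal DNA into a long precursor. Small nucleolar ribonucleoproteins (snoRNPs) modify this precursor at sites set by their guide RNAs, large assembly complexes cut and fold it onto ribosomal proteins, and the subunits are then exported. The pathway is a main consumer of energy in growing cells and is driven by Myc in many of them. Mature neurons do not divide but keep prominent nucleoli, and they need new ribosomes for protein synthesis at synapses.

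Promoter sequence was examined because these genes are often described as sharing regulators. A RefSeq window from 250 bases before to 50 bases after the start was at hand for 33 of the 38 genes (GRCm38.p6), and not for *Bop1*, *Fbl*, *Npm1*, *Rrp12* and *Tcof1*. The E-box CACGTG, the letters bound by Myc and related factors, which read the same on both strands, stood in the windows of 7 of 33 genes (21.2%), namely *Rrn3*, *Nop2*, *Utp18*, *Utp20*, *Wdr43*, *Pes1* and *Mybbp1a*. Among all 27025 genes with a window, 8.09% held it. The ETS-type motif CCGGAAG, searched on both strands and so also as CTTCCGG, stood in the windows of 11 of 33 genes (33.3%), against 9.93% of all genes. The 33 genes had 42 windows in all, and a gene was counted when any of its windows held the motif. Its 7 bases share no overlap with the E-box letters in the windows shown. These shares are a description, with no test, since the genes were chosen by function and promoter composition was not matched. Only *Rrn3*, *Nop2* and *Utp18* held both motifs, and their windows are printed 5′ to 3′ on the strand of the gene, with motif letters in capitals. They lie at chr16:13780449-13780748 (+, *Rrn3*), chr6:125131633-125131932 (+, *Nop2*) and chr11:93885717-93886016 (-, *Utp18*).

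Rrn3: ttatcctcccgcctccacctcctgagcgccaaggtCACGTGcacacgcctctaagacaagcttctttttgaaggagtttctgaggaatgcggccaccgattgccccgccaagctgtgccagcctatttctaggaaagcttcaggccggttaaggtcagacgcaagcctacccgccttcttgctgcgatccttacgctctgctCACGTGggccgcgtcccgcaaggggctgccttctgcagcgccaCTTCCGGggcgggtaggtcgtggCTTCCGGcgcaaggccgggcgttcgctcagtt
Nop2: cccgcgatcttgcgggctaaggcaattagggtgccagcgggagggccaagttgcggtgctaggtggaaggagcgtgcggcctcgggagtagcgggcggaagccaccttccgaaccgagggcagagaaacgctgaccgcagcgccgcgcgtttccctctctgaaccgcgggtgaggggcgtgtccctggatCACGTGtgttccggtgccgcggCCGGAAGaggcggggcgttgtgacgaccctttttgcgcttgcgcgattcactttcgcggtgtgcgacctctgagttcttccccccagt
Utp18: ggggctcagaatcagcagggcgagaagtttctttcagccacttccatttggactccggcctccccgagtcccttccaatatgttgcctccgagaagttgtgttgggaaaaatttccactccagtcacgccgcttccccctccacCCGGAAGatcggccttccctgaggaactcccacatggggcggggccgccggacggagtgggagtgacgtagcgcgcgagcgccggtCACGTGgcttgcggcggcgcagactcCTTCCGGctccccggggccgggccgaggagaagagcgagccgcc

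The *Rrn3* window held 2 copies of each motif, the *Utp18* window 1 E-box and 2 ETS-type matches, and the *Nop2* window 1 of each. A match in these letters does not show that a factor is bound there. None of the 3 genes passed the test in any comparison described below.

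Ribosome biogenesis genes were expressed at moderate levels in the hippocampus. Their median over 12 libraries was 20.9 TPM, against 9.60 TPM for all tested genes, and their mean levels ran from 0.579 TPM for *Tcof1* to 165.8 TPM for *Npm1*. TPM is corrected for transcript length, so these levels can be set side by side. Their spread was small as well. The coefficient of variation over the 6 WT libraries had a median of 7.32%, against 8.81% among all genes that averaged 1 TPM or more. The exceptions, singled out after their values were seen, were *Tcof1* (112.2%), *Nolc1* (33.5%) and *Rrp1b* (16.1%).

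**Figure D1:**
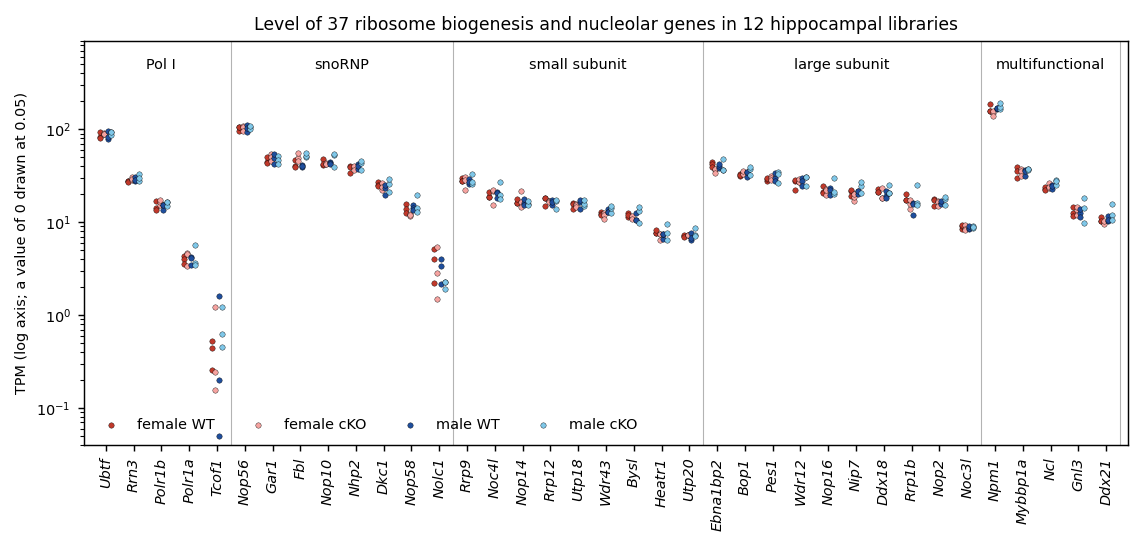
Level of the 37 genes in each of the 12 libraries, as TPM on a log axis, with 1 point per library coloured by group and the genes ordered by role and then by mean level. Points of a gene lie close together except for *Tcof1*, whose value of 0 in male WT replicate 1 is drawn at 0.05, and *Nolc1*.

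Within the Pol I machinery, levels differed widely between genes. *Ubtf*, the factor that bends and opens ribosomal DNA, averaged 88.4 TPM, and *Rrn3*, which brings Pol I to the promoter, averaged 29.1 TPM. The core enzyme subunits *Polr1b* and *Polr1a* averaged 15.5 and 4.11 TPM. *Tcof1*, which codes for treacle, a partner of Pol I, was low in all libraries and listed at 0 in male WT replicate 1. Its values ran from 0 to 1.59 TPM in WT and from 0.156 to 1.23 TPM in cKO libraries, so its comparison carries little information.

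Among snoRNP genes, *Nop56*, a core protein of box C/D particles, averaged 103.3 TPM, while *Nop58*, which pairs with it in that particle, averaged 13.97 TPM. The box H/ACA proteins *Gar1*, *Nop10*, *Nhp2* and *Dkc1*, the last of which is the pseudouridine synthase, averaged 47.9, 44.8, 39.6 and 24.5 TPM. *Fbl*, which codes for fibrillarin, the ribose methyltransferase of box C/D particles, averaged 46.4 TPM. *Nolc1*, a chaperone of snoRNPs, was the lowest of this group at 3.10 TPM. Small subunit genes spanned 7.27 TPM (*Utp20*) to 28.0 TPM (*Rrp9*), and large subunit genes 8.83 TPM (*Noc3l*) to 39.6 TPM (*Ebna1bp2*). Of the multifunctional nucleolar proteins, *Npm1* (nucleophosmin) was the most abundant, followed by *Mybbp1a* at 35.4 TPM, *Ncl* (nucleolin) at 24.7 TPM, *Gnl3* (nucleostemin) at 13.3 TPM and the helicase *Ddx21* at 11.1 TPM. *Npm1* has processed copies in the mouse genome, and its level depends on how reads were divided among them.

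Some of the genes also hold snoRNA genes, a feature that their choice did not use. In GENCODE, 6 of the 37 genes (16.2%) contained at least 1 snoRNA gene on their own strand, against 1.42% of 16181 tested protein-coding genes. The 6 hosts held 19 snoRNA genes, 5 in *Nop56*, 4 in *Nop58*, 3 each in *Wdr43*, *Ncl* and *Gnl3*, and 1 in *Dkc1*. Poly-A selected libraries measure the spliced host mRNA, so snoRNA levels were not measured.

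The main comparison asked whether loss of *Dek* shifted these genes in the hippocampus. A gene was called when its fold change exceeded 1.2 and its adjusted p was below 0.05 (limma on log2(TPM + 0.1), 6 cKO against 6 WT, Benjamini-Hochberg over all 18197 genes). By this rule 27 genes, or 0.148%, were called, and 0 of the 37 ribosome biogenesis genes were among them. At an unadjusted p under 0.05, 1 of 37 genes passed, *Fbl*, against 6.64% of all genes. The count by direction was 1 higher and 0 lower, against 4.84% and 1.8% of all genes. The median log2 fold change over the 37 genes was 0.03, against 0.02 over all genes, and 27 of 37 had a positive sign, against 55.8% of all genes. The count of positive signs depended on male cKO replicate 3. Without it, 18 of 37 were positive, against 56.1% of all genes, the median was -0.0019, and again 0 of 37 genes were called, against 0.121% of all genes.

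The error of these values bounds the size of any difference. For 26 of the 37 genes (70.3%) the 95% interval of the difference lay within a 1.2-fold change in either direction, against 36.6% of all tested genes. The other 11 include *Fbl*, *Tcof1* and *Nolc1*. For *Nop56* the interval of the log2 difference ran from -0.09 to 0.12, and for *Npm1* from -0.20 to 0.11. For *Nolc1* it ran from -1.04 to 0.21, and for *Tcof1* from -0.77 to 1.88. Changes of these low genes well beyond 1.2-fold thus lay within the intervals, for *Nolc1* only in the lower direction.

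**Figure D2:**
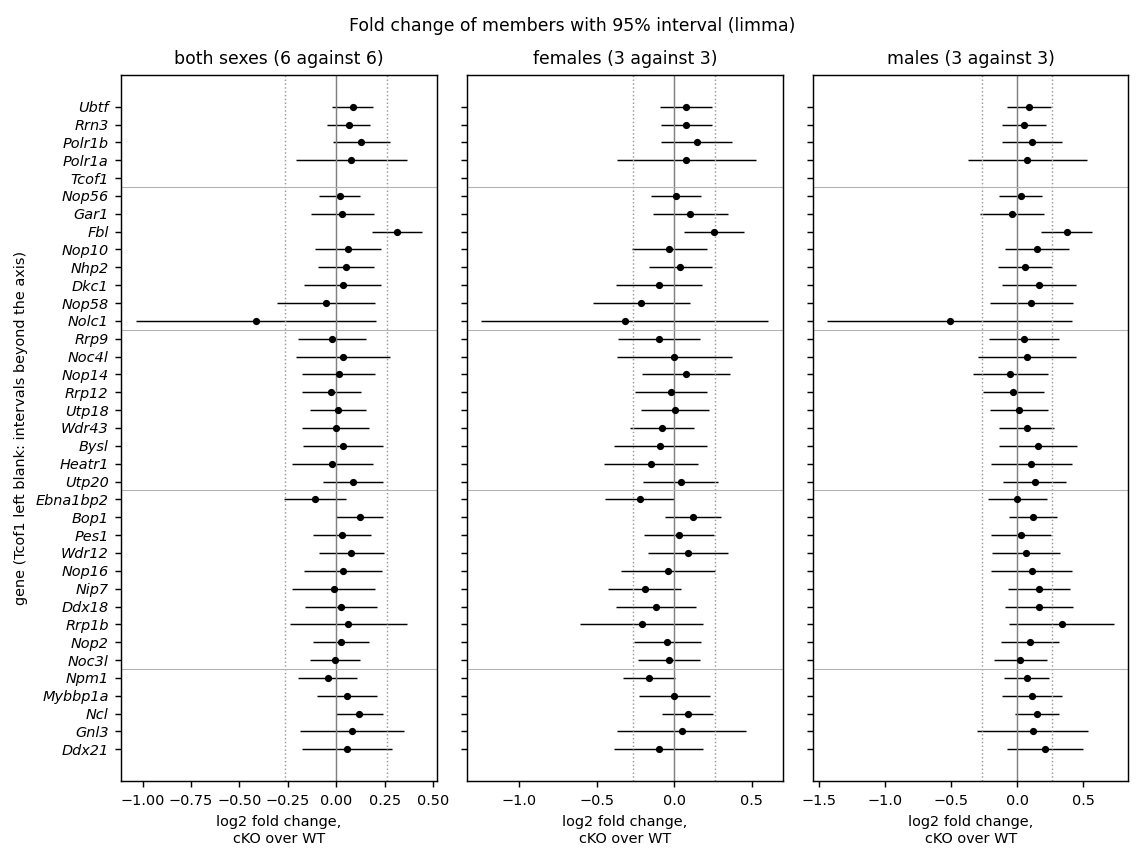
Log2 fold change of cKO over WT for each gene in both sexes, females and males, with 95% intervals from limma as bars and dotted lines at a fold of 1.2 in either direction. The panels have their own horizontal scales. *Fbl* sits to the right of 0 in all 3 panels, the other intervals drawn include 0, and *Tcof1* is left blank since its intervals run beyond the axes.

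*Fbl* (chromosome 7, 28169710 to 28179269, GRCm38) came closest to the threshold. Female WT libraries had 46.5, 40.1 and 39.7 TPM and male WT libraries 41.1, 39.6 and 40.7 TPM. Female cKO libraries had 49.6, 56.1 and 45.3 TPM and male cKO libraries 50.1, 51.3 and 56.2 TPM. All 6 cKO libraries lay above the WT median, as they also did for *Polr1b* and *Ubtf*. The groups of *Fbl* overlapped only through female WT replicate 1, which was above female cKO replicate 3. The shares of all genes with these 2 patterns were not computed. The means of *Fbl* were 41.3 ± 2.62 TPM (SD, n = 6) in WT and 51.5 ± 4.17 TPM (SD, n = 6) in cKO libraries. The log2 fold change was 0.32 (SE 0.06, 95% interval 0.19 to 0.44), with an unadjusted p of 0.000144 and an adjusted p of 0.0686 by limma, above the 0.05 threshold. It passed without female WT replicate 1 (0.35, adjusted p = 0.0451 by limma) and without female cKO replicate 3 (0.35, adjusted p = 0.0355), which is 1 of the 2 libraries whose sex label is in conflict. Without male cKO replicate 3 it was 0.29 with an adjusted p of 0.124. With only the libraries that share a name prefix, 6 cKO against 3 male WT, it was 0.34 with an adjusted p of 0.292 by limma.

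A paralog of *Fbl*, named after its values were seen, pointed the other way. *Fbll1*, fibrillarin-like 1, had 35.3 ± 1.03 TPM (SD, n = 6) in WT and 31.5 ± 2.19 TPM (SD, n = 6) in cKO libraries, a log2 fold change of -0.17 with an unadjusted p of 0.00486 and an adjusted p of 0.421 by limma. Neither gene passed the threshold, and how reads were divided between them was not tested.

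**Figure D3:**
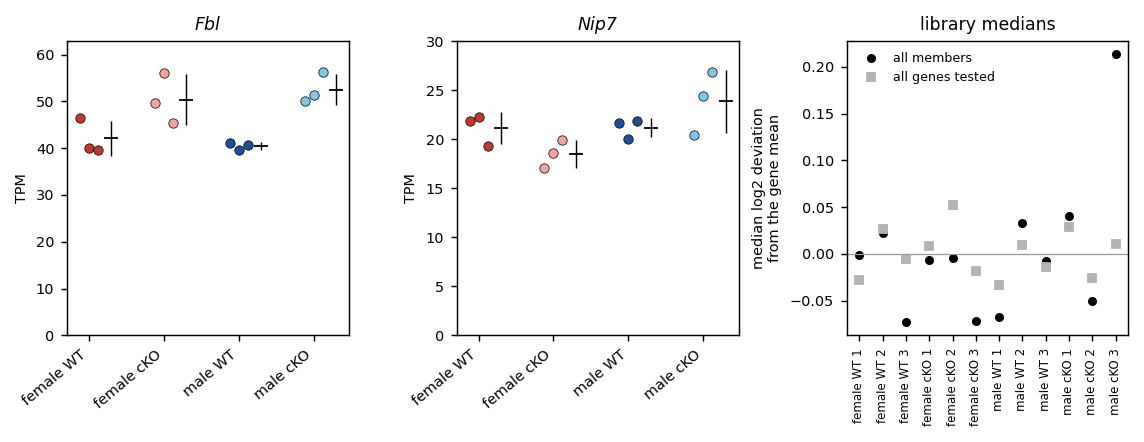
Left and middle, TPM of *Fbl* and *Nip7* in each library by group, with the group mean and SD (n = 3) beside the points. Right, the median log2 deviation from the gene mean over the 37 genes (black circles) and over all tested genes (grey squares) in each library, where male cKO replicate 3 has the highest value of the 37 genes at 0.21.

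None of the remaining genes passed the test in this comparison. Set out by role, all 5 Pol I genes had a positive log2 fold change, with a median of 0.08 and none at an unadjusted p under 0.05. *Polr1b* was nearest at 0.13 (95% interval -0.02 to 0.28, unadjusted p = 0.0824 by limma), with 14.8 ± 1.37 TPM (SD, n = 6) in WT and 16.1 ± 0.977 TPM (SD, n = 6) in cKO libraries. *Ubtf*, the most abundant of them, had 83.2, 92.9 and 81.7 TPM in female WT, 78.8, 95.5 and 83.2 TPM in male WT, 92.3, 89.8 and 89.3 TPM in female cKO and 93.0, 86.9 and 93.8 TPM in male cKO libraries. The highest *Ubtf* value was thus in a WT library, and its cKO libraries lay inside the WT range, all 6 of them above the WT median. Its log2 fold change was 0.08 (95% interval -0.02 to 0.19).

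The snoRNP genes other than *Fbl* had log2 fold changes between -0.41 (*Nolc1*) and 0.06 (*Nop10*). *Nop56*, which shares its particle with fibrillarin, had 95.6, 105.8 and 105.9 TPM in female WT, 94.2, 110.3 and 104.2 TPM in male WT, 108.5, 105.6 and 95.5 TPM in female cKO and 105.8, 99.96 and 107.9 TPM in male cKO libraries. The groups overlapped across nearly their whole range, and the log2 fold change was 0.02. *Nop58*, the other scaffold of that particle, stood at -0.05 (95% interval -0.30 to 0.20). The H/ACA genes *Nhp2*, *Dkc1*, *Gar1* and *Nop10* lay between 0.03 and 0.06.

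Small subunit genes, which form the processome around the nascent precursor, ran from -0.02 (*Rrp12*) to 0.09 (*Utp20*), with 5 positive and 4 negative. *Rrp9*, a component of the snoRNP that guides early cleavage of the precursor and the most abundant of this group, had 30.2, 28.1 and 28.0 TPM in female WT, 25.8, 29.3 and 27.4 TPM in male WT, 30.5, 28.4 and 22.2 TPM in female cKO and 26.0, 27.3 and 32.7 TPM in male cKO libraries. Both the lowest and the highest value were in cKO libraries, and the log2 fold change was -0.02. *Heatr1*, *Utp18*, *Wdr43*, *Nop14*, *Noc4l* and *Bysl*, all of them small subunit assembly factors, had log2 fold changes between -0.02 and 0.04.

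Among large subunit genes, *Bop1*, *Pes1* and *Wdr12*, which form the PeBoW complex, had log2 fold changes of 0.12, 0.03 and 0.08. *Bop1* had 32.7 ± 1.59 TPM (SD, n = 6) in WT and 35.6 ± 2.77 TPM (SD, n = 6) in cKO libraries, with an unadjusted p of 0.0509 by limma. *Ebna1bp2*, an early large subunit assembly factor, had 44.3, 42.0 and 39.3 TPM in female WT, 37.95, 40.4 and 42.3 TPM in male WT, 36.2, 37.3 and 34.2 TPM in female cKO and 36.7, 36.7 and 48.2 TPM in male cKO libraries. All cKO libraries but male cKO replicate 3 lay below all WT libraries, a pattern whose share over all genes was not computed. Its log2 fold change was -0.11 (95% interval -0.27 to 0.05), and without that library -0.18 (95% interval -0.28 to -0.08, unadjusted p = 0.00217, adjusted p = 0.306 by limma), a setting in which 2 of 37 genes, *Fbl* and *Ebna1bp2*, had an unadjusted p under 0.05 against 7.05% of all genes. The methyltransferase *Nop2*, the helicase *Ddx18* and the assembly factors *Nop16*, *Noc3l*, *Nip7* and *Rrp1b* lay between -0.01 and 0.06.

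Of the multifunctional proteins, *Ncl* had a log2 fold change of 0.12 (unadjusted p = 0.0559 by limma) and *Npm1* of -0.04. *Npm1* had 185.5, 158.4 and 157.1 TPM in female WT, 165.3, 170.9 and 171.2 TPM in male WT, 150.5, 157.7 and 139.0 TPM in female cKO and 167.7, 174.3 and 192.0 TPM in male cKO libraries. Its cKO libraries labelled female did not overlap with those labelled male, while both overlapped with WT. The share of all genes split in this way was not computed, so the split is not a trait of *Npm1*. With the conflicting labels exchanged, the cKO libraries of the sexes overlapped, and the interaction of *Npm1* was -0.05 in place of -0.23. *Mybbp1a*, *Gnl3* and *Ddx21* lay between 0.06 and 0.08.

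The sexes were compared in 1 fit of 4 groups of 3 libraries. In libraries labelled male, no gene was called, against 0.0165% of all genes, and *Fbl* alone had an unadjusted p under 0.05, against 5.45% of all genes, or 3.68% of all genes in the higher direction. Its log2 fold change was 0.37 (SE 0.09, unadjusted p = 0.0013, adjusted p = 0.538 by limma). The median over the 37 genes was 0.10, against 0.02 over all genes, and 33 of 37 were positive, against 54.9% of all genes. Without male cKO replicate 3 the median was 0.03 with 24 of 37 positive, against 54.3% of all genes, 0 of 37 genes were called, and *Rrp1b* joined *Fbl* at an unadjusted p under 0.05, against 4.13% of all genes. *Rrp1b* stood at 0.47 in that fit. Male cKO replicate 1, a library of conflicting sex, had 24.9 TPM of *Rrp1b*, against 14.0 to 17.3 TPM in the other cKO libraries. With the 2 conflicting sex labels exchanged and all libraries kept, the median in males was 0.03, and *Fbl* stood at 0.33. *Ddx18* then stood at 0.24 (unadjusted p = 0.0268, adjusted p = 0.602 by limma) and *Rrp1b* at 0.16 (unadjusted p = 0.41 by limma). Groups did not overlap for 2 genes higher in male cKO libraries, *Fbl* and *Mybbp1a*, against 5.91% of all genes, and for 0 genes lower, against 3.84%.

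In libraries labelled female, no gene was called either, against 0.0165% of all genes, and *Fbl* was again the 1 gene with an unadjusted p under 0.05, against 5.79% of all genes, or 3.91% in the higher direction. Its log2 fold change was 0.26 (SE 0.09, unadjusted p = 0.014, adjusted p = 0.788 by limma). The median over the 37 genes was -0.01, with 17 positive, against 53.9% of all genes. With the conflicting labels exchanged, the median in females was 0.01 and *Fbl* stood at 0.30. Groups did not overlap for 2 genes higher in female cKO libraries, *Rrn3* and *Bop1*, against 7.45% of all genes, and for 4 genes lower, *Nop58*, *Heatr1*, *Ebna1bp2* and *Ddx21*, against 4.59% of all genes. The log2 fold change of *Ebna1bp2* in females was -0.22 (95% interval -0.45 to 0.00, unadjusted p = 0.0515 by limma) and of *Npm1* -0.16 (unadjusted p = 0.0603 by limma). The 4 groups share 1 estimate of the spread, and the median standard error over all genes was 0.17, or 0.15 without male cKO replicate 3. In that fit *Fbl*, *Ebna1bp2* and *Npm1* had an unadjusted p under 0.05 in females, against 7.24% of all genes, and 0 of 37 genes were called, against 0.022%.

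**Figure D4:**
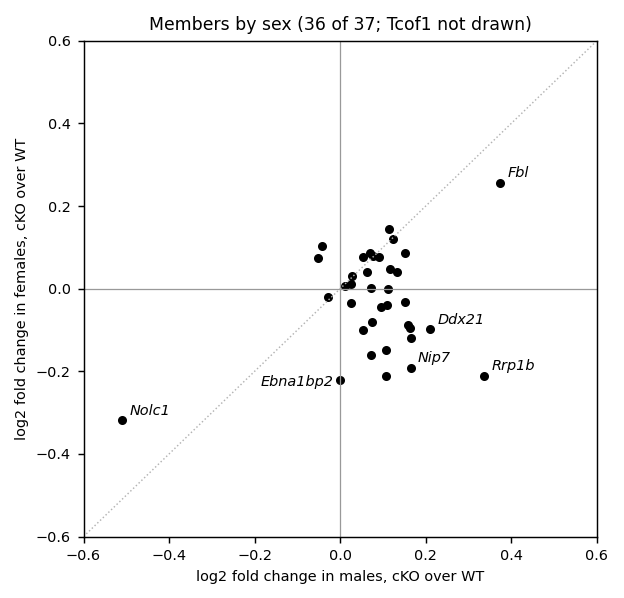
Log2 fold change of cKO over WT in libraries labelled male (horizontal) against those labelled female (vertical) for 36 genes, with the dotted line marking equal values and *Tcof1* not drawn. *Fbl* lies far up and right, *Nolc1* far down and left with wide error, and most other genes lie below the dotted line.

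The difference between the sexes was itself tested as an interaction, the female effect minus the male effect. No gene was called, against 0% of all genes, and 1 of 37, *Nip7*, had an unadjusted p under 0.05, against 4.23% of all genes. It was in the lower direction, with 2.07% of all genes, while 0 of 37 were in the higher direction, with 2.16%. The median interaction over the 37 genes was -0.09, against -0.01 over all genes, with 9 of 37 positive, against 48.7% of all genes. Without male cKO replicate 3 the median was -0.06 with 16 positive, against 49.8% of all genes, and *Rrp1b* took the place of *Nip7* at an unadjusted p under 0.05, against 4.28% of all genes. With the 2 conflicting labels exchanged and all libraries kept, the median was -0.02. *Ddx18* then had an interaction of -0.43 (unadjusted p = 0.00761, adjusted p = 0.735 by limma). *Rrp1b* stood at -0.20 (unadjusted p = 0.477 by limma), and *Nip7* had an unadjusted p of 0.061 by limma. The share of all genes in that setting is not given here. With the sexes as labelled, the interaction of *Fbl* was -0.12 (unadjusted p = 0.363 by limma).

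*Nip7*, an assembly factor of the large subunit that binds the precursor RNA, had 21.9, 22.3 and 19.3 TPM in female WT, 17.0, 18.5 and 19.9 TPM in female cKO, 21.7, 20.1 and 21.8 TPM in male WT and 20.5, 24.4 and 26.8 TPM in male cKO libraries. The genotypes overlapped within each sex. The interaction was -0.36 on the log2 scale (SE 0.15, unadjusted p = 0.0365, adjusted p = 0.966 by limma). It was -0.27 without male cKO replicate 3 (unadjusted p = 0.0852 by limma) and -0.33 with the conflicting labels exchanged (unadjusted p = 0.061 by limma). It was -0.46 without male cKO replicate 1 (unadjusted p = 0.00558 by limma) and -0.52 without both libraries of conflicting sex (unadjusted p = 0.00329, adjusted p = 0.296 by limma).

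One library stood apart in these genes. Male cKO replicate 3 had the highest value of all 12 libraries for 21 of 37 genes (56.8%), against 19.5% of all tested genes. Its values lay above the mean of the other 11 libraries for 33 of 37 genes, against 9354 of all 18197 genes, and the median deviation was 0.23 on the log2 scale, against 0.01 over all genes. The median deviation from the gene mean was 0.21 in this library and between -0.07 and 0.04 in the others. The largest deviations from the other 11 were those of *Ddx21* (0.57), *Nop58* (0.56), *Gnl3* (0.50), *Noc4l* (0.46) and *Nop16* (0.46), which include helicase, snoRNP and assembly functions. By role, it was the highest library for 7 of 9 small subunit genes, 5 of 8 snoRNP genes, 6 of 10 large subunit genes 3 of 5 multifunctional genes and 0 of 5 Pol I genes, of which 4 lay above their gene mean there. The other lists of the pathway were shifted alike in this library. Its median deviation from the gene mean was 0.14 over other Pol I genes, 0.19 over other small subunit genes, 0.18 over other large subunit genes, 0.17 over exosome and RNase MRP genes and 0.16 over ribosomal proteins, of which 75 of 77 lay above their mean, while the 11 genes of the Myc network stood at -0.13. *Nolc1*, *Polr1a*, *Gar1* and *Rrp1b* lay below the mean of the other libraries there. High ribosomal proteins were not particular to this library. In male cKO replicate 2 their median deviation was 0.12, with 74 of 77 above their mean, while the 37 genes stood at -0.05.

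**Figure D5:**
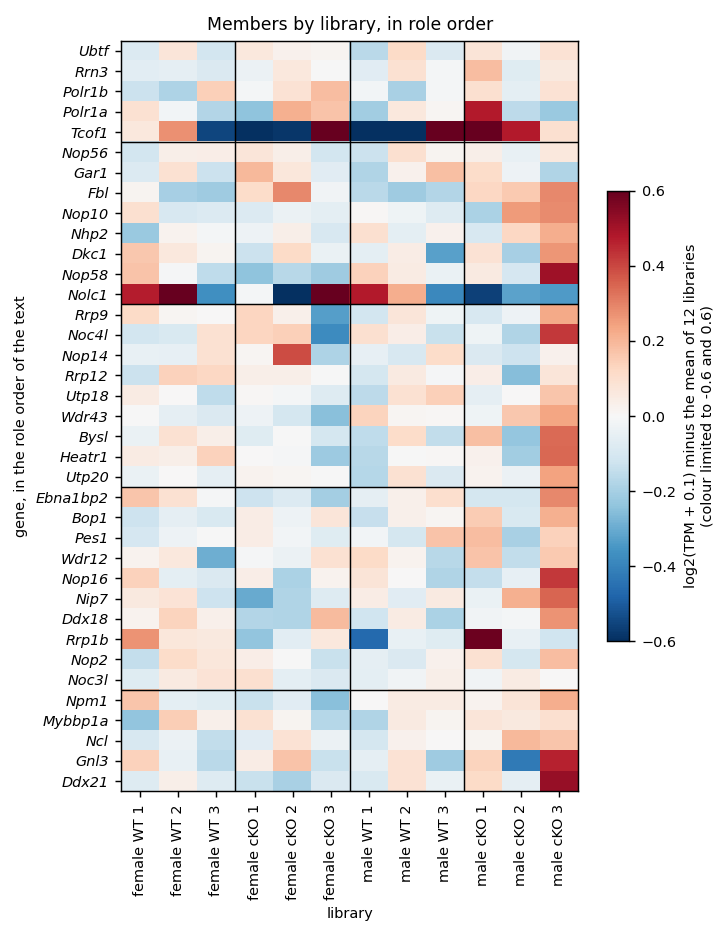
Log2(TPM + 0.1) minus the mean of 12 libraries for each of the 37 genes (rows, in role order) and each library (columns, by group), with colour limited to -0.6 and 0.6. The column of male cKO replicate 3 is red for most rows, while *Tcof1* and *Nolc1* vary between libraries of every group.

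The same library differed in other measured ways, whose part in the higher nucleolar genes was not tested. No marker of the 5-gene astrocyte list was at 0 in any library. Beside *Gfap*, the genes *Cd44*, *Timp1* and *Hspb1*, which are raised in reactive astrocytes and were singled out after their values were seen, had 26.5, 39.2 and 79.2 TPM there. The other 11 libraries had 2.32 to 3.59 TPM of *Cd44*, 2.05 to 3.72 TPM of *Timp1* and 8.38 to 13.1 TPM of *Hspb1*. Its neuronal markers summed to 3728 TPM, inside the range of 3369 to 3763 TPM of the other libraries. It was the lowest library in microglial markers, at 95.9 TPM against 102.5 to 130 TPM, and in endothelial markers, at 100.9 TPM against 112 to 133.9 TPM. Its markers of proliferating cells summed to 66.9 TPM, against 52.3 to 60.2 TPM elsewhere, and its 13 mitochondrial genes to 170400 TPM, against 178700 to 203100 TPM. Female cKO replicate 3, the library with the next highest *Gfap*, had a median deviation of -0.07 over the 37 genes.

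Other genes of the pathway were taken from lists of known factors. In both sexes together, none of the further genes in 6 lists was called. The counts at an unadjusted p under 0.05 are to be read against 6.64% of all genes, 4.84% higher and 1.8% lower. Of 16 other Pol I subunits and factors, 0 had an unadjusted p under 0.05, and the smallest was that of *Znrd1*, a small Pol I subunit (log2 fold change 0.17, unadjusted p = 0.121 by limma). Of 38 other small subunit factors, 2 were higher and 0 lower, led by *Imp3* (0.15, unadjusted p = 0.011 by limma). This list had 2 higher and 2 lower without male cKO replicate 3, against 7.05% of all genes in the 2 directions together. The smallest p there was that of *Wdr36* (-0.19, unadjusted p = 0.00532 by limma). Of 49 other large subunit factors, 4 were higher and 0 lower, led by *Wdr18*, of the complex that releases late precursors from the nucleolus, with 23.7 ± 1.25 TPM (SD, n = 6) in WT and 27.1 ± 0.974 TPM (SD, n = 6) in cKO libraries (0.19, unadjusted p = 0.00131, adjusted p = 0.247 by limma). *Wdr18* had equal effects in males and females, 0.19 in each. Male cKO replicate 3 had its highest value, 28.3 TPM, and 40 of the 49 large subunit factors lay above their mean there. Of the 6 lists, only the small subunit list has its counts in both sexes given without that library. Of 24 exosome and RNase MRP genes, which trim and cut the precursor, 0 passed, with *Exosc8* nearest (0.11, unadjusted p = 0.052 by limma). Of 11 genes of the Myc network 0 passed, with *Mxd1* nearest (-0.12, unadjusted p = 0.202 by limma).

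By sex, again none of these genes was called. At an unadjusted p under 0.05 in males, 1 of 16 other Pol I genes, 5 of 38 small subunit genes (13.2%), 1 of 49 large subunit genes and 3 of 77 ribosomal protein genes (3.9%) were higher and 0 lower, against 3.68% higher among all genes. Without male cKO replicate 3 the counts higher were 0, 1, 1 and 1, and 1 large subunit gene, *Nmd3*, was lower (-0.35, unadjusted p = 0.0146 by limma). The share of all genes in that fit was 4.13%, higher and lower together. In females, 1 small subunit gene was lower, and 2 large subunit genes, 1 exosome or RNase MRP gene and 2 genes of the Myc network were higher, against 3.91% higher and 1.88% lower among all genes. With male cKO replicate 3 left out, 4 small subunit genes were lower in females and 1 ribosomal protein gene was higher. The share of all genes in that fit was 7.24%, higher and lower together. Leaving out a male library keeps the female fold changes as they are and alters only the shared estimate of the spread.

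The cytosolic ribosomal proteins, which the assembly factors load onto the precursor, were measured by 77 genes. Of these, 2 (2.6%) were higher and 0 lower at an unadjusted p under 0.05, against 4.84% and 1.8% of all genes, led by *Rpl12* with 24.9 ± 2.43 TPM (SD, n = 6) in WT and 29.2 ± 2.41 TPM (SD, n = 6) in cKO libraries (0.23, unadjusted p = 0.007, adjusted p = 0.486 by limma). Ribosomal protein genes have many processed copies, which can take or lend reads. The median of the 77 genes was 0.03 in both sexes, with 61 positive. Without male cKO replicate 3 it was 0.01, with 42 positive against 61 with it.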

How the data were processed

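The authors deposited 1 table of TPM (read abundance corrected for transcript length and library size), with 1 column for each of 12 hippocampal libraries, and all 12 columns were matched to samples by name. The submitters' notes name kallisto and mm10, while the methods describe STAR and Salmon on GRCm38, and which of them made the table is not given in the sources used here. TPM keep no read depth, so no counting interval is given. Column sums ran from 825750 to 845553 TPM, and 18104 to 18719 genes were above 0. Identifiers were named from GENCODE M21, which held 25245 of 26409. At most 0.00584% of values were identical between 2 libraries.

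Values were tested as log2(TPM + 0.1) for genes averaging 0.1 TPM or more, with limma 3.58.1 in R 4.3.3 (moderated test, trended prior variance, two-sided, Benjamini-Hochberg over all tested genes). Fold changes are on that log2 scale and understate changes of low genes. A fit of 2 groups gave the comparison of both sexes, and a fit of 4 groups gave males, females and their interaction. A call needed a fold over 1.2 and an adjusted p below 0.05. On simulated data with 200 genes shifted by 1 on the log2 scale, 72.5% were recovered in 6 against 6 libraries, with 4 false calls. Calls there used the adjusted p alone. Smaller shifts were not simulated, so this rate does not apply to changes of the size seen in *Fbl*.

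The members, lists and tests were chosen with earlier results of these data known. Values in every library are given for *Dek*, for members with an unadjusted p under 0.05 in any of the 4 comparisons, and for the most abundant member of each role. Of each pathway list the gene with the smallest unadjusted p in both sexes is named, and *Wdr36* and *Nmd3* after their values were seen. Alternatives were other pseudocounts, filters and scalings, a replicate block, no prior trend, a covariate for sex, other handling of the conflicting sex labels, CMV-named libraries only, and leaving out each library. Sequences are from RefSeq. Marker lists not described further, those of oligodendrocytes, microglia, endothelium, meninges and thalamus, overlapped between the genotypes.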

Additional observations from a re-analysis of the deposited data

Results flagged for a closer look

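In each genotype of 6 libraries, the highest or lowest value of a gene was compared with its nearest neighbour by Dixon's criterion, in 76 groups. By chance about 1 in 20 independent groups would be singled out, and 10 were. The groups share the same libraries and are not independent, and the share over all genes is not given here. No explanation was tested for any of the 10.

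Male cKO replicate 3 gave 4 of the 10, each high among cKO libraries. It had 17.5 TPM of *Utp18* against 14.8 to 15.6 TPM in the other 5 cKO libraries, 8.596 TPM of *Utp20* against 7.08 to 7.37 TPM, 29.7 TPM of *Nop16* against 19.4 to 22.8 TPM, and 48.2 TPM of *Ebna1bp2* against 34.2 to 37.3 TPM.

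The others came from 6 different libraries. Female WT replicate 1 had 46.5 TPM of *Fbl* against 39.6 to 41.1 TPM in the other WT libraries, the value through which the genotypes overlapped. Male WT replicate 3 had 34.0 TPM of *Pes1* against 28.0 to 30.1 TPM. Female cKO replicate 2 had 21.8 TPM of *Nop14* against 14.6 to 16.8 TPM. Male cKO replicate 1 had 24.9 TPM of *Rrp1b* against 14.0 to 17.3 TPM. Low values were those of *Rrp12* in male cKO replicate 2, 13.9 TPM against 16.6 to 17.4 TPM, and of *Mybbp1a* in female cKO replicate 3, 31.4 TPM against 35.7 to 37.7 TPM.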

How the results depend on the processing

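The number of ribosome biogenesis genes called stayed at 0 in males, females and the interaction under every alternative run. In both sexes it ran from 0 to 1 when each library was left out. It was 1, *Fbl*, without female cKO replicate 3 and without female WT replicate 1, where its adjusted p was 0.0355 and 0.0451 by limma, and 0 otherwise, with adjusted p-values of *Fbl* from 0.0615 to 0.292. The replicate numbers did not pair the libraries, since deviations of same-numbered libraries correlated at -0.0385 to 0.0445. With the number as a replicate block, 0 genes were called and the adjusted p of *Fbl* was 0.275. The median log2 fold change of the 37 genes ran from -0.0019 to 0.05 in both sexes, from 0.03 to 0.15 in males, from -0.04 to 0.02 in females and from -0.13 to -0.02 in the interaction. *Tcof1* lay below the stricter filter of 1 TPM and was not tested there. Depth is unknown, and low genes such as *Tcof1* and *Nolc1* had too wide a spread to bound their change.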
